A study of Mus musculus with 34 samples.

Results

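PDX1 occupancy in the presence of IL-1β was compared between Bmal1-/- and wild-type Beta-TC6 cells, a mouse insulinoma line used as a model of the pancreatic β cell. The members are the 47025 PDX1 peaks of these groups, out of 174035 peaks in the 10 deposited lists, of which 8095 came from knockout cells and 38930 from wild-type cells. A peak was called shared where the list of the other genotype held a peak overlapping it by 1 bp or more, and otherwise knockout only or wild type only. Each peak was assigned to the nearest protein-coding gene body within 50 kb of its centre in mm10.

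The knockout group carried the genotype Bmal1-/- and was exposed to IL-1β, and it was set against wild-type cells of the same line exposed to IL-1β. Cells of both genotypes also received 10 µM forskolin for 1 h. The labels used here give neither the dose nor the duration of IL-1β, and they do not say whether the knockout line is 1 clone. Each genotype has 3 PDX1 samples with IL-1β, but each is represented by 1 peak list, so no value has a replicate error and no difference between the genotypes could be tested. Intervals below are Wilson 95% intervals of a share, and they cover counting error over peaks only. Peaks at neighbouring positions share libraries and are not replicates of a condition.

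PDX1 is a homeodomain transcription factor that specifies the pancreas in the embryo and maintains insulin production and glucose sensing in adult β cells. BMAL1, encoded by Arntl, pairs with CLOCK to drive the transcriptional loop of the circadian clock. IL-1β is an inflammatory cytokine that acts on β cells through its receptor and activates NF-κB, a dimeric factor whose p65 subunit is encoded by Rela.

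To show the sequence at gene starts with a peak of each class, the 250 bases before a transcription start are printed for 8 genes. They come from RefSeq on GRCm38.p6 (mm10) and are written 5′ to 3′ on the strand of the gene. Capitals mark the letters TAAT or ATTA, the short core that homeodomain proteins recognise, on either strand, including where the copies overlap as TAATTA. Elavl4 (chr4:110287528-110287777, minus strand), a neuronal RNA-binding protein gene, is shown because, of the gene starts with a shared peak and a TAATTA, it had the highest tag count. Ins1 (chr19:52264047-52264296, plus strand) encodes insulin. Iapp (chr6:142298175-142298424, plus strand) encodes amylin, which is secreted with insulin. Rfx6 (chr10:51685268-51685517, plus strand) encodes a factor needed for islet development, and G6pc2 (chr2:69219699-69219948, plus strand) encodes the islet glucose-6-phosphatase. Gcg (chr2:62483654-62483903, minus strand), the glucagon gene, and Irf1 (chr11:53769764-53770013, plus strand), an interferon regulatory factor induced by NF-κB, had a peak at this place in wild-type cells only. The start of 4933405L10Rik (chr8:105708039-105708288, plus strand) had a peak in knockout cells only.
Elavl4: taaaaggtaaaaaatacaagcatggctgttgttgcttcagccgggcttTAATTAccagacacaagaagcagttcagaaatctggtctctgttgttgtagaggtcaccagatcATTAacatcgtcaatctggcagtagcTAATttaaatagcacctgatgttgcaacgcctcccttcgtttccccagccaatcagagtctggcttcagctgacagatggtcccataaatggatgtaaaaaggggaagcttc
Ins1: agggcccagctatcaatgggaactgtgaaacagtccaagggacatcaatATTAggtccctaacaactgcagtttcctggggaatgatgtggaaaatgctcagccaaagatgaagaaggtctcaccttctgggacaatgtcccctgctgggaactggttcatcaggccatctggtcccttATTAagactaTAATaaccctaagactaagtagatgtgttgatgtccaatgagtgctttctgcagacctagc
Iapp: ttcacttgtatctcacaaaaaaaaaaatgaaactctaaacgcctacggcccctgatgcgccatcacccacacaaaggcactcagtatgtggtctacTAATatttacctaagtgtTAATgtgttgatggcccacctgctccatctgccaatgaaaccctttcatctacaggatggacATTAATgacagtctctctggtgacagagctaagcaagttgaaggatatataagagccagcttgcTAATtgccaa
Rfx6: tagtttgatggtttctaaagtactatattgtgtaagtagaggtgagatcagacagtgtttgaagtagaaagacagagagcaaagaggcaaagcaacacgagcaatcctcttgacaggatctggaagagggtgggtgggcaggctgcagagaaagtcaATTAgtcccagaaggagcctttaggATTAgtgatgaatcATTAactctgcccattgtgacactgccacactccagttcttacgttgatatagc
G6pc2: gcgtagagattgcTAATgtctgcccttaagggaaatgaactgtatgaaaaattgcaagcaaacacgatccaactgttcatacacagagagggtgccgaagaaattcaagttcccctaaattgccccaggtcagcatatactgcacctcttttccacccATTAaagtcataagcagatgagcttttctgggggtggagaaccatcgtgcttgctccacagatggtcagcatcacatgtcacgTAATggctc
Gcg: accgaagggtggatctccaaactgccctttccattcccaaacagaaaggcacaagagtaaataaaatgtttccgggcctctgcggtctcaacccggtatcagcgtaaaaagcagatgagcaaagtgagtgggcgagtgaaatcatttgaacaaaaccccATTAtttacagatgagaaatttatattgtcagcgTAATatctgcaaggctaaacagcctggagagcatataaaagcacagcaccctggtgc
Irf1: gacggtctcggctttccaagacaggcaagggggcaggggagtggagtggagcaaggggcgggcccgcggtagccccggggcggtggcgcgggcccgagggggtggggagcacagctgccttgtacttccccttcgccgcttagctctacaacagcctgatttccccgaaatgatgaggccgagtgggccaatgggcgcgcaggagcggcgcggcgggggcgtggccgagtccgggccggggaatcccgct
4933405L10Rik: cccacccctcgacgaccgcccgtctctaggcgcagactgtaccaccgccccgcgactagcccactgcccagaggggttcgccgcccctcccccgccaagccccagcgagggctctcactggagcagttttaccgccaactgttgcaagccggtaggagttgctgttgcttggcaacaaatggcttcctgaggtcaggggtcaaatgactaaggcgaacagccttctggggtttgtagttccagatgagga

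The first 5 sequences belong to shared peaks. They hold 3 to 5 matches of the core, which counts both strands of the longer core. The wild-type peak covers only 125 (Rfx6) to 205 (Iapp) of these 250 bases. Some matches, as in Ins1 and G6pc2, lie outside that peak. The glucagon gene, with a wild-type peak only, holds 2 matches. Irf1, with a wild-type peak only, and 4933405L10Rik, with a knockout peak only, hold none within these 250 bases. A match is a description of the letters and not a binding site.

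The knockout list held far fewer peaks than the wild-type list at a similar number of reads. The knockout list was called from 63.9 M tags and the wild-type list from 61.8 M tags. Peaks took up 1.29% of the tags in knockout cells and 5.55% of the tags in wild-type cells, per the file headers. Of 67451 candidate peaks in knockout cells 78.1% were removed for lack of enrichment over input, against 60.04% of 146146 candidates in wild-type cells. The caller set the peak width itself, at 418 bp in the knockout list and 226 bp in the wild-type list. Tag counts below are the authors' counts per 10 M tags within those widths, so a knockout count covers more sequence than a wild-type count. In these bulk cells, binding in fewer cells and weaker binding in each cell cannot be told apart. Lower enrichment in the knockout immunoprecipitation moves with every difference reported below. Genotype and immunoprecipitation efficiency cannot be told apart with 1 list a genotype.

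The antibody label of these 6 samples names p65, while their titles and the file headers name PDX1. Of the knockout peaks 87.7% were also in the PDX1 list of wild-type cells without IL-1β, 60.6% were in the PDX1 list of knockout cells without IL-1β, and 43.8% were in the p65 list of knockout cells with IL-1β. Of the wild-type peaks 61.8% were in the PDX1 list of wild-type cells without IL-1β and 27.2% in the p65 list of wild-type cells with IL-1β. The knockout PDX1 list without IL-1β, which is the shorter, held 19.4% of the wild-type peaks. The PDX1 list of the same genotype thus overlapped each list more often than the p65 list of that genotype, and the titles were followed.

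As deposited, the knockout peaks were nearly all present in wild-type cells, whereas most wild-type peaks had no knockout counterpart. This contrast rests on lists of unequal length: with the wild-type list reduced to its 8095 strongest peaks, 58.5% of either list was shared. Of the 8095 knockout peaks 7280 were shared, which is 89.9% (89.3 to 90.6%). Of the 38930 wild-type peaks 18.7% (18.3 to 19.1%) were shared. The shared peaks formed 7280 one-to-one pairs, leaving 815 knockout-only peaks, 10.1% of the knockout list, and 31650 wild-type-only peaks.

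Sharing followed peak strength in both lists, but to different ends. In the knockout list, 99.3% of the quartile with the highest tag counts (19.4 and above) were shared, then 96.1% and 89.1% of the next quartiles, and 75.2% of the lowest quartile. The 404 strongest knockout peaks, the top twentieth, were all found in wild-type cells (Wilson interval 99.1 to 100%). In the wild-type list, 53.0% of the highest quartile (17 tags and above) were shared, or 5159 of 9732 peaks. The next wild-type quartiles had 1454 of 9733 (14.9%), 514 of 9732 (5.28%) and 153 of 9733 (1.57%) shared. In the top twentieth of the wild-type list, 1742 of 1946 peaks were shared (89.5%), and 204 peaks of at least 41.5 tags had no knockout counterpart.

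**Figure D1:**
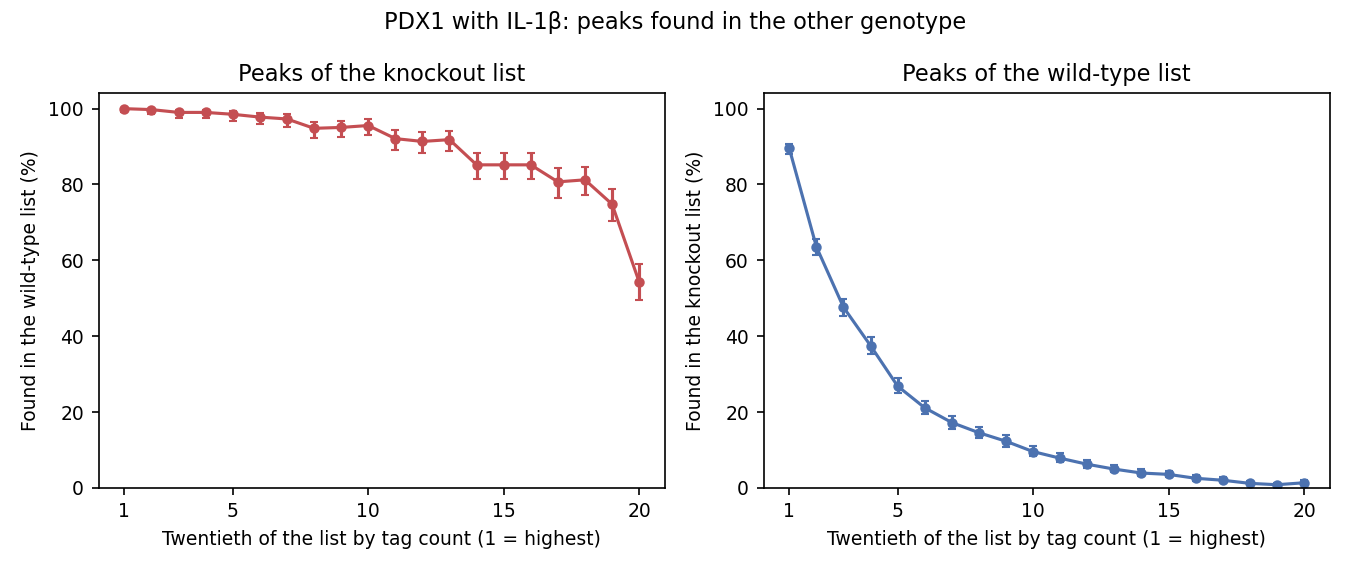
Share of peaks found in the list of the other genotype (percent, y axis) for successive twentieths of each list ordered by tag count (x axis, 1 is the highest), with Wilson 95% intervals; knockout peaks are on the left and wild-type peaks on the right. Knockout peaks are 54.3% shared even in the weakest twentieth, while wild-type peaks drop to 63.6% in the second twentieth and to 1.34% in the last.

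At shared sites the knockout peak carried fewer tags. Over the 7280 pairs the median tag count was 14.2 in knockout cells and 25.3 in wild-type cells, and the knockout count was the lower in 6386 pairs (87.7%) although its window was wider. The order of strength was kept in part, with Spearman's rho of 0.78 across the pairs, which are not independent replicates. The centres of paired peaks lay a median of 37 bp apart. Median fold over input in the pairs was 6.63 in knockout cells and 11.93 in wild-type cells. The share of these peaks under 5-fold, close to the caller's 4-fold limit, was 23.1% in knockout cells and 6.10% in wild-type cells.

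Peaks found in 1 genotype were weaker than shared peaks, with a long strong tail in wild-type cells. Knockout-only peaks had a median of 8.45 tags and reached 27.9 tags. Wild-type-only peaks had a median of 7.77 tags. Of the wild-type-only peaks 6010 (18.99%) lay below 4.54 tags, the lowest count of any knockout peak. In contrast, 7137 wild-type-only peaks (22.5%) reached or passed 13.6 tags, the median of the knockout list. Few unshared peaks lay close to a called peak of the other genotype. Signal under the caller's limits at these sites was not examined. Only 62 knockout-only peaks (7.61%) and 188 wild-type-only peaks (0.594%) had a peak of the other genotype centred within 1 kb. The nearest peak of the other genotype lay a median of 17315 bp from knockout-only peaks and 88769 bp from wild-type-only peaks, in lists of unequal length.

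The classes lay in similar places relative to genes, apart from gene starts. Gene bodies held 48.7% of the shared knockout peaks, 45.4% of the knockout-only peaks and 47.5% of the wild-type-only peaks. No protein-coding gene lay within 50 kb of 29.5% of the shared knockout peaks, 29.8% of the knockout-only peaks and 30.6% of the wild-type-only peaks. Windows from 250 bases before to 50 bases after a transcription start were overlapped by 20 knockout-only peaks, which is 2.45% (1.59 to 3.76%). The same windows were overlapped by 0.865% (0.677 to 1.11%) of the shared knockout peaks and by 0.935% (0.835 to 1.05%) of the wild-type-only peaks. Knockout peaks are the wider, which raises the chance of touching a window and applies to both knockout classes.

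Gene starts with a shared peak included several islet genes. At Rfx6 the peak had 29.9 tags in knockout cells and 87.3 tags in wild-type cells. Iapp had 35.8 tags in knockout cells and 74.6 tags in wild-type cells, and Myt1, a zinc-finger factor of endocrine progenitors, had 27.4 tags in knockout cells and 67 tags in wild-type cells. All of these starts were also bound without IL-1β in both genotypes. G6pc2 had 20 tags in knockout cells and 41.8 tags in wild-type cells, Elavl4 had 24.1 tags in knockout cells and 43.7 tags in wild-type cells, and Ins1 had 22.1 tags in knockout cells and 31.1 tags in wild-type cells. The knockout count was the lower at each of these starts. The aldo-keto reductase genes Akr1c12, Akr1c13 and Akr1c19 on chromosome 13 had shared peaks at their starts too. Whether the alignment split reads between these related genes was not tested. Within the windows, wild-type-only peaks at starts reached 43.2 tags at Btbd8 and 40.3 tags at Alkbh5, as strong as several shared ones. They were weaker at Irf1 (11.3 tags), Gcg (10.5 tags) and Egr2 (9.39 tags), an immediate early zinc-finger factor. The 4418 genes without a window, Ins2 among them, are not covered here. Ins2 had a stronger wild-type-only peak of 68.5 tags, 240 bp from the gene. The highest knockout-only peak at a start had 13.6 tags and was 4.34-fold over input, and it covers the divergent starts of Enkd1 and 4933405L10Rik.

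The letters of the promoter windows differed between the classes. The windows, each 300 bases long, numbered 21238 for 17469 genes, of which 60 were overlapped by a shared peak, 321 by a wild-type-only peak and 21 by a knockout-only peak. TAATTA, searched on both strands, occurred in 9.52% (2.65 to 28.9%) of windows with a knockout-only peak, in 28.3% (18.5 to 40.8%) with a shared peak, in 15.3% (11.7 to 19.6%) with a wild-type-only peak and in 4.54% of all windows. The shorter TAAT, which lies inside TAATTA and was searched after the data had been seen, occurred in 9 of the 21 windows with a knockout-only peak (42.9%), 91.7% of those with a shared peak, 71.7% of those with a wild-type-only peak and 51.8% of all windows. Windows with a shared or a wild-type-only peak therefore held homeodomain letters more often than all windows. For knockout-only windows the TAATTA interval included the shares of all, wild-type-only and shared windows, so it set them apart from none of these. Their TAAT interval (24.5 to 63.5%) included the share of all windows and lay below those of the other classes. Median GC content was 59.3% in windows with a knockout-only peak, 50.7% with a shared peak, 54.7% with a wild-type-only peak and 56.3% in all windows, and its part in these shares was not tested.

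The other motifs are given for the same windows. CAGATG, an E-box of the NEUROD1 type, occurred in 14.3% (4.98 to 34.6%) of windows with a knockout-only peak, 28.3% (18.5 to 40.8%) with a shared peak, 11.5% (8.48 to 15.5%) with a wild-type-only peak and 14.6% of all windows. CACGTG, the E-box that CLOCK and BMAL1 recognise, occurred in 9.52% of windows with a knockout-only peak, 6.67% with a shared peak, 9.35% with a wild-type-only peak and 7.84% of all windows. Shares of CACGTG with a shared or wild-type-only peak were thus close to that of all windows. The NF-κB motif occurred in 1 window with a knockout-only peak, in 3 with a shared peak, in 6 with a wild-type-only peak and in 1.45% of all windows. The AP-1 motif TGANTCA was in 6.67% of windows with a shared peak and 9.35% with a wild-type-only peak, against 6.99% of all windows, and the forkhead motif TGTTTAC in 6.67% and 6.54% of these classes, against 3.00% of all windows. Windows of alternative starts of 1 gene overlap and are not independent.

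Counted by gene over the full lists, the knockout set lay almost wholly within the wild-type set. A knockout peak was assigned to 3491 of 21887 protein-coding genes (16.0%) and a wild-type peak to 8996 (41.1%). Both genotypes had a peak at 3379 genes (15.4%) and 3201 of these had a shared peak. A further 112 genes (0.512%) had a knockout peak only and 5617 (25.7%) had a wild-type peak only. With lists of equal length these became 1033 genes with a knockout peak only and 894 with a wild-type peak only, and at 8-fold or more over input 1380 genes had a peak in both. Of genes with a wild-type peak, 37.6% also had a knockout peak. This share was 83.5% in the quartile of genes whose highest wild-type peak was strongest and 6.80% in the weakest quartile. It was 18.4% for genes with 1 wild-type peak and 93.3% for genes with 10 or more.

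At most genes that define the β cell, a wild-type peak was accompanied by a knockout peak, and the wild-type peaks at these genes were strong. Of 65 genes in the lists of β-cell transcription factors, insulin granule genes and glucose-sensing and exocytosis genes, 37 had a knockout peak and 52 had a wild-type peak. All 37 had both, which is 71.2% of the 52, beside 37.6% of all genes with a wild-type peak. The median of the highest wild-type tag count was 28.75, 40.5 and 35.1 for these lists, in that order, against 14.1 for all genes with a wild-type peak. Peak strength thus moved with list membership, and its part in the share was not tested. Counted by peak, 79 of 271 wild-type peaks at these genes were shared (29.2%), beside 18.7% of all wild-type peaks. The highest knockout peak was weaker than the highest wild-type peak in 37 of the 37 genes, beside 91.5% of all genes with a peak in both. It was also weaker in 71 of 71 such genes over all gene lists used here, so this was not particular to β-cell genes.

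Among 24 β-cell transcription factors, 15 had a peak in both genotypes, 7 in wild-type cells only and 2 in neither. Rfx3, a ciliary and islet factor, had a highest count of 57.1 tags in knockout cells and 126.5 in wild-type cells. Nkx6-1, which maintains β-cell identity, had 47.4 tags in knockout cells and 99.4 in wild-type cells. Mlxipl, the carbohydrate-responsive factor ChREBP, had 31.8 tags in knockout cells and 93.9 in wild-type cells. In these genes the knockout signal remained at the site that was strongest in wild-type cells. Glis3, a zinc-finger factor of insulin transcription, was different, with 4 shared peaks of at most 19.4 tags in knockout cells, while its strongest wild-type peak of 68.5 tags was wild type only. The genes with a wild-type peak only included Pax4 (52.5 tags), Neurod1 (36.3), Mafa (12.6), Gata6 (10.2) and Hnf4a (9.88). MAFA and NEUROD1 are activators of insulin transcription, and PAX4 directs β-cell fate.

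The Pdx1 locus itself, on chromosome 5, showed both outcomes side by side. The peak at chr5:147264234-147264460 had 25.5 tags in knockout cells and 80 tags in wild-type cells. Another shared peak, at chr5:147247260-147247486, had 11.6 tags in knockout cells and 25.7 tags in wild-type cells, was in neither PDX1 list without IL-1β, and overlapped a p65 peak in both genotypes. Nearer to the gene, wild-type peaks at chr5:147267418-147267644 (56.8 tags) and chr5:147268005-147268231 (46.5 tags) had no knockout counterpart. Both of these were in the wild-type PDX1 list without IL-1β and absent from the knockout list without IL-1β. They were stronger in wild-type cells than the weaker shared peak, so tag count alone did not order which peaks of this locus were in the knockout list.

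Genes of the insulin granule showed a split between the insulin genes. Of 18 genes, 10 had a peak in both genotypes and 5 in wild-type cells only. Iapp is not among them, because the rule gave the shared peak at its start to Slco1a5, whose gene body covers the peak centre, so these counts and those of the 65 genes hold it as a gene without a peak. Slc30a8, the granule zinc transporter, held the second strongest knockout peak of all, with 106.7 tags in knockout cells and 132.8 in wild-type cells. Cpe, which trims prohormones, had 46.8 tags in knockout cells and 128.9 in wild-type cells. At Ins1, a distal peak at chr19:52252449-52252675 had 26.6 tags in knockout cells and 52.5 in wild-type cells, in addition to the peak at its start. Ins2 had no knockout peak, and its wild-type peak at chr7:142679853-142680079, 240 bp from the gene, had 68.5 tags and was 7.92-fold over 26 input tags. That Ins2 site was in the PDX1 lists without IL-1β of both genotypes. Other genes with a wild-type peak only were Pcsk1 (37.6 tags), a prohormone convertase, Scg5 (29.5), a chaperone of the convertase PCSK2, Ucn3 (14.2), a marker of β-cell maturity, and Chgb (8.74).

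Of 15 glucose sensing and exocytosis genes with a wild-type peak, 12 had a knockout peak. Abcc8, the sulfonylurea receptor of the potassium channel that couples glucose to insulin release, had 8 wild-type peaks, of which 5 were shared, and the strongest had 34.9 tags in knockout cells and 85.8 in wild-type cells. Slc2a2, the glucose transporter GLUT2, had 31 tags in knockout cells and 59.3 in wild-type cells. Cacna1d, a calcium channel subunit, had 26.6 tags in knockout cells and 58.9 in wild-type cells. Genes with a wild-type peak only included Glp1r (24.3 tags), the incretin receptor, and Adcy5 (6.80), an adenylyl cyclase. Of the 15 genes of these 3 lists with a wild-type peak only, 4 had their highest peak in the knockout PDX1 list without IL-1β, among them Pax4, Ins2 and Pcsk1.

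**Figure D2:**
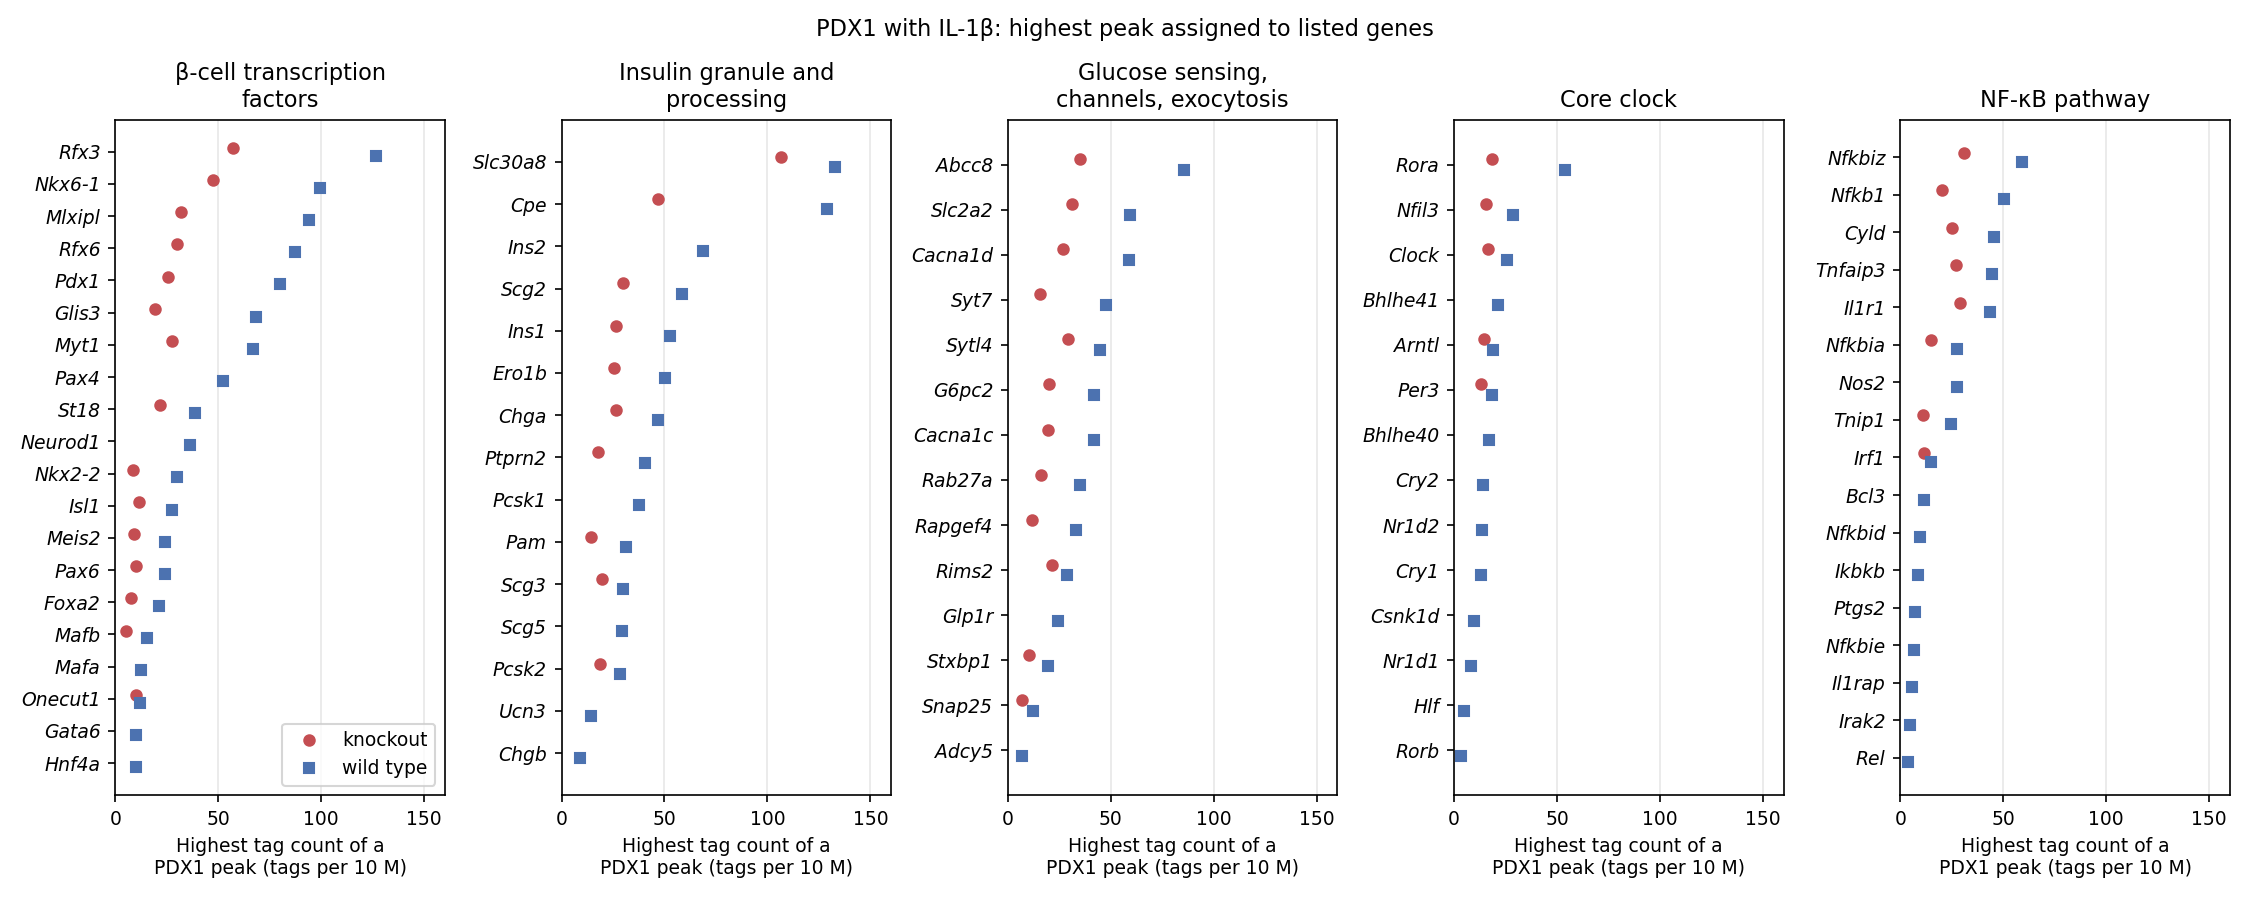
Highest tag count of a PDX1 peak (tags per 10 M, x axis) for listed genes with a peak, in knockout cells (circles) and wild-type cells (squares); a gene with a square alone had no knockout peak, and the highest peaks of a gene can lie at different sites. Each list has 1 value per genotype and gene, without error; knockout values lie left of wild-type values, and Pax4 and Ins2, with no circle, have more wild-type tags than several genes that have one.

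Endocrine genes of other islet cells were bound as well. Of 12, 6 had a peak in both genotypes and 4 in wild-type cells only, beside 37.6% of all genes with a wild-type peak that had a knockout peak. Peaks assigned to Sst, the somatostatin gene, reached 44.3 tags in knockout cells and 102.8 in wild-type cells, at a site 46762 bp from the gene body. Pyy, peptide YY, had 40.8 tags in knockout cells and 119.8 in wild-type cells. Hhex, a factor of somatostatin cells, had 24.7 tags in knockout cells and 61.9 in wild-type cells. Ttr (18.6 tags), Gcg (17.2), Irx1 (6.15) and Pou3f4 (3.40) had wild-type peaks only. Of 14 genes normally kept low in β cells or raised on dedifferentiation, 9 had a wild-type peak and only Hk1, hexokinase 1, had a knockout peak, with 57.3 tags in knockout cells and 152.5 in wild-type cells. Those 9 genes had a median highest wild-type count of 13.8 tags, near the 14.1 of all genes. Their share with a knockout peak was 11.1%, beside 37.6% of all genes with a wild-type peak. Both lists of this paragraph are short, and neither share was tested against that of all genes.

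Clock, NF-κB and cytokine genes varied in how many with a wild-type peak also had a knockout peak, at 5 of 15, 8 of 17 and 2 of 10 genes in that order. Together, of 42 such genes with a wild-type peak, 15 (35.7%) had a knockout peak, beside 37.6% of all genes with a wild-type peak. Of their 111 wild-type peaks 22 were shared (19.8%), near the 18.7% of all wild-type peaks. Among clock genes, 5 of 15 were bound in both genotypes, led by Rora, a nuclear receptor that regulates Arntl, with 18.3 tags in knockout cells and 53.8 in wild-type cells. Nfil3 had 15.6 tags in knockout cells and 28.5 in wild-type cells, and Clock itself 16.7 in knockout cells and 25.9 in wild-type cells. Arntl, the gene deleted in the knockout, had a shared peak inside the gene at chr7:113227224-113227450 with 14.6 tags in knockout cells and 11 in wild-type cells. This was 1 of the sites where the knockout count was the higher, in the wider window, and whether it lies in the deleted part is not given in the labels. Wild-type peaks only were assigned to 10 clock genes, among them Bhlhe41 (21.5 tags), Bhlhe40 (17.2), Cry2 (13.9) and Nr1d2 (13.4). The Bhlhe40 peak of 17.2 tags lay 49219 bp from the gene body, and a nearer peak, at 2215 bp, had 10.8 tags.

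Of 17 NF-κB pathway genes with a wild-type peak, 8 had a knockout peak. Nfkbiz, an atypical IκB induced by IL-1, had 30.8 tags in knockout cells and 59.3 in wild-type cells. Nfkb1, the p50 precursor, had shared peaks at which 16.6 tags in knockout cells stood against 50.2 in wild-type cells, and 20.2 in knockout cells against 42.1 in wild-type cells. Tnfaip3, the feedback deubiquitinase A20, had 27.1 tags in knockout cells and 44.4 in wild-type cells, and Il1r1, the IL-1 receptor, had 29.1 in knockout cells and 43.7 in wild-type cells. Nfkbia, which encodes IκBα, had peaks in both genotypes at different sites. Nos2, the inducible nitric oxide synthase, had a wild-type peak only (27.4 tags), which overlapped p65 peaks of both genotypes. Among cytokine genes, Csf1 had 41.5 tags in knockout cells and 89.4 in wild-type cells. Tnf was the single listed gene with a knockout peak only, at chr17:35199007-35199425, 151 bp from the gene, with 17.1 tags and 4.53-fold over 12 input tags. That site overlapped a p65 peak in both genotypes and no PDX1 peak without IL-1β.

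The remaining lists are given as counts, to be read beside the 37.6% of all genes with a wild-type peak that had a knockout peak. Of 16 endoplasmic reticulum stress and apoptosis genes, 6 of the 11 with a wild-type peak had a knockout peak, led by Atf6, a stress sensor, with 46.5 tags in knockout cells and 104.1 in wild-type cells. Immediate early genes had 2 of 7, among them Jun with 30.5 tags in knockout cells and 44.2 in wild-type cells. SIN3 and HDAC complex genes had 2 of 10, and markers of other lineages had 2 of 7, among them Pecam1 with 30.4 tags in knockout cells and 76.1 in wild-type cells. The keratin gene Krt19 had a wild-type peak only, of 44.4 tags.

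Outside the lists, the strongest shared peak with a gene lay in Zfp395, with 70.3 tags in knockout cells and 234.5 in wild-type cells. The strongest knockout peak, at Ube3c, a ubiquitin ligase gene, had 137.2 tags in knockout cells and 222.2 in wild-type cells. Knockout-only peaks with a gene within 50 kb were led by Pde5a (25.7 tags), a cGMP phosphodiesterase, Adcy8 (25.5), an adenylyl cyclase, Ap4b1 (24.1), Crybb1 (23.2) and Reln (21.1). The strongest wild-type-only peak with a gene lay 2255 bp from Elobl, with 209.7 tags and 14.01-fold over 45 input tags. It was followed by Fry (87.4), Prep (83.4), Diras2 (75.9) and Rbm20 (71.1). Of the 10 strongest peaks with a gene in each class, the knockout PDX1 list without IL-1β held 5 of the knockout-only, 10 of the shared and 9 of the wild-type-only peaks. Over the whole highest wild-type quartile, 28.2% of the 4573 wild-type-only peaks were in both PDX1 lists without IL-1β and a further 1.07% in the knockout list alone, so the 10 strongest do not stand for the rest.

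Over whole classes the PDX1 lists without IL-1β separated the peaks further. Of the knockout-only peaks 143 (17.5%) were in both lists without IL-1β, 58 (7.12%) in the knockout list alone, 308 (37.8%) in the wild-type list alone and 306 (37.5%) in neither. Of the shared peaks 62.3% were in both, 2.16% in the knockout list alone, 28.5% in the wild-type list alone and 7.06% in neither. Of the wild-type-only peaks 7.98% were in both, 1.04% in the knockout list alone, 47.1% in the wild-type list alone and 43.9% in neither. A knockout-only peak with IL-1β was therefore a wild-type site without IL-1β in 451 of 815 cases (55.3%). That wild-type list held a similar 55.1% of the wild-type-only peaks, and 87.7% of all knockout peaks. Adding the knockout list without IL-1β raised the wild-type peaks found in knockout cells to 10133 (26.03%), and those of the highest quartile to 6497 (66.8%).

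At like wild-type strength, shared peaks were more often in the knockout list without IL-1β than wild-type-only peaks were. Among wild-type peaks with 25 to 30 tags, 749 were shared and 792 were wild type only. The knockout list without IL-1β held 68.4% (64.9 to 71.6%) of those shared and 35.6% (32.3 to 39.0%) of those wild type only. The wild-type list without IL-1β held 94.5% of those shared and 93.6% of those wild type only.

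Overlap with p65 peaks of the same IL-1β exposure also differed by class. The knockout p65 list overlapped 28.7% (25.7 to 31.9%) of knockout-only peaks, 45.5% of shared knockout peaks and 8.46% of wild-type-only peaks. The wild-type p65 list overlapped 18.04% (15.5 to 20.8%) of knockout-only peaks, 52.7% of shared knockout peaks and 21.9% of wild-type-only peaks. Peaks of each genotype alone thus overlapped the p65 list of their own genotype more often than that of the other genotype, in p65 lists of 16162 knockout and 31389 wild-type peaks. Per the file headers, 1 input per genotype served both its p65 and its PDX1 list.

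Among strong wild-type PDX1 peaks, shared sites overlapped a knockout p65 peak more often than wild-type-only sites did. In the highest quartile, among PDX1 peaks that overlapped a wild-type p65 peak, a knockout p65 peak was also present at 2124 of 3082 shared sites (68.9%, 67.3 to 70.5%) and at 689 of 1981 wild-type-only sites (34.8%, 32.7 to 36.9%). Among those with no wild-type p65 peak, a knockout p65 peak was present at 28.7% of shared sites and 5.05% of wild-type-only sites. With 25 to 30 tags the shares were 67.4% of shared and 33.1% of wild-type-only sites with a wild-type p65 peak, and 27.3% of shared and 7.80% of wild-type-only sites without one. A PDX1 site missing from the knockout PDX1 list was thus more often missing from the knockout p65 list too, at like wild-type PDX1 strength. The SIN3A list is a corepressor profile from wild-type cells with control siRNA. Over peaks of all strengths, it overlapped 5.03% of knockout-only peaks, 5.55% of shared knockout peaks and 1.51% of wild-type-only peaks. Within the highest wild-type quartile, it overlapped 6.01% of shared wild-type peaks and 4.83% of wild-type-only peaks.

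**Figure D3:**
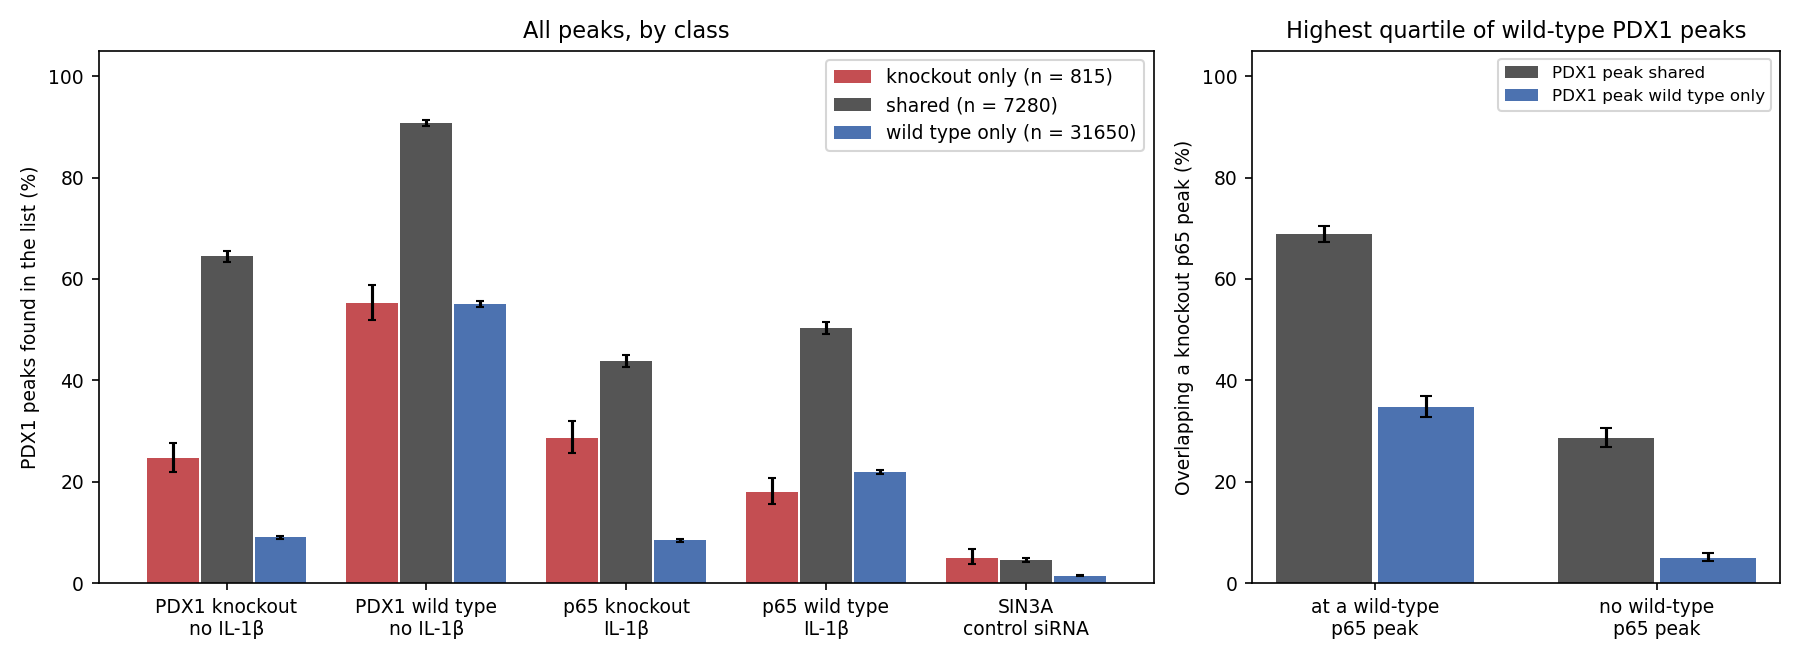
Left, share of knockout-only, shared (wild-type coordinates) and wild-type-only PDX1 peaks found in 5 other lists (percent, bars from 0); right, share of the highest quartile of wild-type PDX1 peaks that overlap a knockout p65 peak, split by the presence of a wild-type p65 peak; bars carry Wilson 95% intervals. Shared peaks are the highest in each PDX1 and p65 list on the left, and shared sites exceed wild-type-only sites in both groups on the right.

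Input moved with sharing as well. Within the highest tag quartile of the wild-type list, shared peaks made up 70.4% of the quartile with the highest fold over input and then 60.8%, 48.3% and 32.6% of the following quartiles. Median tag counts fell along with them, at 35.1, 29.5, 25.4 and 21.7. Among peaks with 25 to 30 tags, where tag count hardly varied, 54.7% (47.4 to 61.9%) of those with up to 3 input tags and 41.1% (35.4 to 47.1%) of those with 13 to 21 input tags were shared. The part of input signal in the absence of peaks from the knockout list was not tested.

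By chromosome, the share of the highest wild-type quartile found in knockout cells ran between 42.1% on chromosome 19 (123 of 292) and 70.04% on chromosome 9 (180 of 257). Chromosome X had 69.4% (111 of 160) and chromosome 10 had 46.6% (336 of 721). Over 20 chromosomes this share went with the median number of wild-type input tags at those peaks with a Spearman's rho of -0.81, and with the median input tags at knockout peaks with -0.62. All chromosomes come from the same pair of lists and inputs, so these values are a description. Copy number of the cell line was not analysed here.

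**Figure D4:**
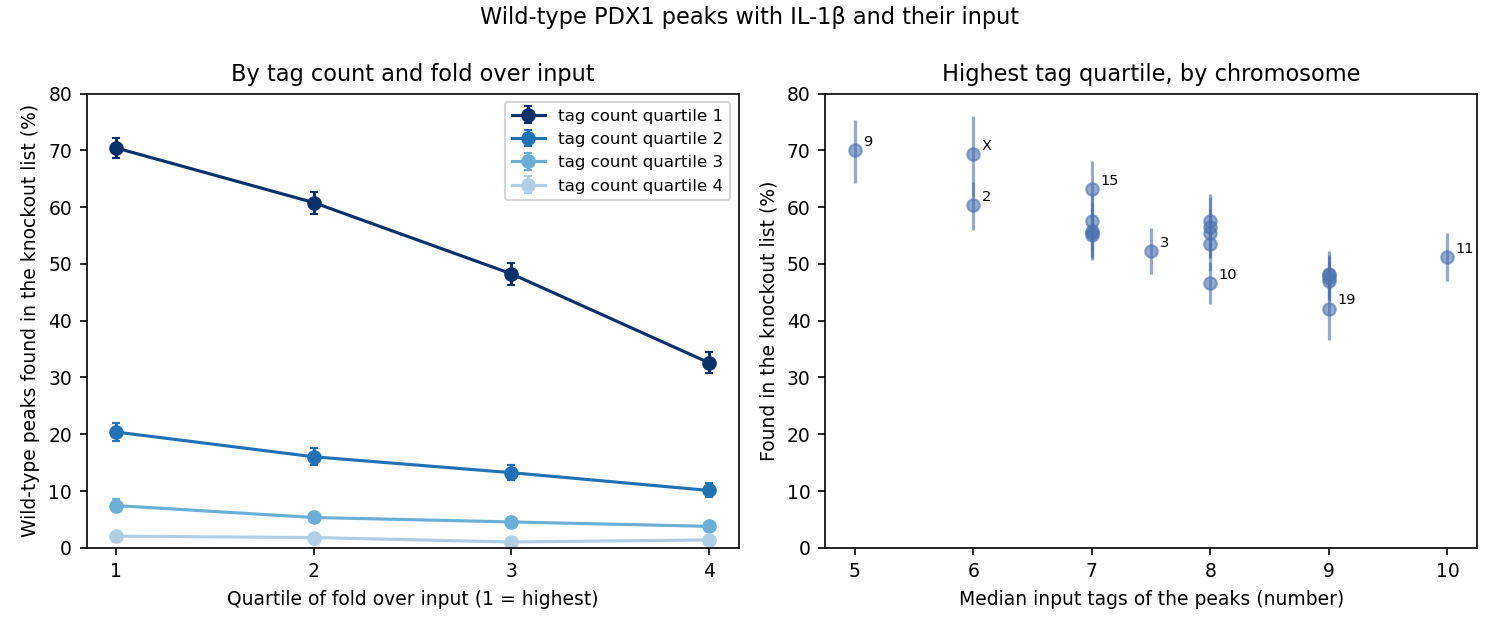
Left, share of wild-type PDX1 peaks found in the knockout list (percent, y axis) by quartile of fold over input (x axis, 1 is the highest) within each quartile of tag count; right, the same share in the highest tag quartile for each of 20 chromosomes (some labelled) against the median input tags of those peaks; bars are Wilson 95% intervals. In the highest tag quartile the share drops from 70.4% to 32.6% across fold quartiles, and chromosomes 9 and X, with few input tags, lie highest.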

How the data were processed

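ChIP-seq peak lists of Beta-TC6 cells were used, 1 for each of 10 groups, made by the authors from 34 samples that include 6 inputs. Per the submitters' processing notes, Bowtie2, HOMER and the build mm10 were used, without versions or roles. Settings of the aligner: not given in the sources used here. Per the file headers, the caller was HOMER findPeaks with its factor settings. It kept peaks that were enriched 4-fold or more over input, and 4-fold or more over the 10 kb around them, with a false discovery rate limit of 0.001. Whether samples were pooled is not in the headers. The authors' tag count per 10 M tags is the signal used here. The deposited score is a tag count adjusted for position, and the deposited ratio to input tags is called fold over input.

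Peaks were intersected at 1 bp or more, ranked by tag count and assigned to 21887 protein-coding genes of RefSeq on GRCm38.p6, which is mm10. Of the genes in 12 lists, Tmem27 matched no symbol and was left out. Members and lists were chosen with earlier results of these data known. Genes named are listed genes with the highest tag counts of each class, and the highest peaks and most-bound genes of each class, while genes named for a peak at their start were chosen after their values were seen. Shares have Wilson 95% intervals, and no test was made because each group is 1 list. A motif count planned in windows around peak centres was made in RefSeq promoter windows in its place. The intersections were tested on simulated peaks, with Python 3.11.15, pandas 2.3.3 and SciPy 1.17.1. The alternatives were other overlap rules, a stricter fold over input, equal list lengths, a common lowest tag count, ranking by score and other gene distances. Some listed genes are counted but not reported by name here.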

Additional observations from a re-analysis of the deposited data

How the results depend on the processing

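The share of knockout peaks found in wild-type cells, 89.9% as reported, was 79.2% with a reciprocal overlap of 50%, 76.3% with centres within 100 bp, 90.7% within 500 bp, 73.5% at 8-fold or more over input in both lists, 89.1% above a common lowest tag count and 58.5% when the wild-type list was reduced to its 8095 strongest peaks. The share of wild-type peaks found in knockout cells, 18.7% as reported, was in the same order 16.5%, 15.9%, 19.05%, 10.3%, 21.95% and 58.5%. Equal list lengths thus give 1 share for both directions by construction. Ranking by score left the highest quartiles at 99.4% of knockout and 53.0% of wild-type peaks shared. Genes with a peak in both genotypes, 3379 as reported, numbered 1380 at 8-fold or more over input. With equal list lengths, genes with a knockout peak only numbered 1033, against 112 as reported, and genes with a wild-type peak only numbered 894, against 5617 as reported. The gene counts with nearest genes within 10 or 100 kb stayed within 1.5 times the reported counts.

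With p65 centres within 100 bp, the knockout p65 list held 17.4% of knockout-only peaks, 30.98% of shared knockout peaks, 32.7% of shared wild-type peaks and 5.96% of wild-type-only peaks. The wild-type p65 list then held 9.57%, 36.4%, 38.9% and 16.2% of these classes. Shared peaks stayed the highest class in each p65 list, while shared wild-type peaks came to lie above shared knockout peaks, which was the other way round as reported. No paired analysis was possible because each group has 1 peak list and no value per replicate. For the same reason leaving out each replicate was not run. No knockout peak had under 4.54 tags, at a caller's threshold of 32 tags in knockout cells and 22 tags in wild-type cells, and tag counts cover 418 bp in knockout cells and 226 bp in wild-type cells.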

Other observations

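Genes with many PDX1 peaks were long genes. Robo2, an axon guidance receptor gene of 1555 kb, had 14 knockout and 53 wild-type peaks, of which 13 wild-type peaks were shared. Tenm4 had 12 shared peaks, Auts2 and Car10 had 11 each and Nell1 had 10. Ntm, a neural adhesion gene of 969 kb, had the most knockout-only peaks, 5 of its 14 knockout peaks, beside 30 wild-type peaks. Camk1d had 3 knockout-only peaks among 5 knockout peaks and 5 wild-type peaks. Wild-type-only peaks were most numerous at Lsamp and Nrxn3 (41 each), Cntnap2 and Robo2 (40 each) and Dlg2 (39), genes of synapses and neural adhesion that are between 1555 and 2241 kb long.

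The highest wild-type tag count of all was at a mitochondrial peak, M from 13415 to 13641, with 4073.8 tags, 4.96-fold over 2469 input tags. It had no knockout counterpart and was also in the wild-type list without IL-1β. Outside the assembled nuclear chromosomes there were 5 knockout peaks and 21 wild-type peaks, of which 4 wild-type peaks were shared.

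Of 83 knockout peaks at promoter windows, 20 were knockout only (24.1%, 16.2 to 34.3%), beside 10.1% of all knockout peaks. The SIN3A list with control siRNA held 7 of these 20 and 22 of the 63 shared knockout peaks at promoter windows. The knockout p65 list held 8 of the 20 and the wild-type p65 list held 4.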
